A study of Homo sapiens with 6 samples.

Results

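Methylglyoxal is a reactive by-product of glycolysis, and 5 genes whose products remove it or undo its damage are described here in NB4 cells with and without overexpression of CD69. The genes are GLO1, HAGH, PARK7, AKR1A1 and AKR1B1, 5 of the 61806 genes in the deposited count table. They were taken by gene symbol as glyoxalases and aldo-keto reductases, and they were selected on the measured level of GLO1, which was abundant and stood about 5-fold higher in the overexpressing cells. The difference between the groups for these genes is therefore given as a description, with no test. All 5 passed the filter on low counts.

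Methylglyoxal forms when the triose phosphates of glycolysis lose their phosphate group, and it modifies arginine and lysine residues and DNA bases. In the main route of removal it reacts with glutathione, glyoxalase 1 (GLO1) turns the adduct into S-lactoylglutathione, and glyoxalase 2 (HAGH) releases D-lactate and returns the glutathione. Aldo-keto reductases such as AKR1A1 and AKR1B1 reduce methylglyoxal with NADPH, and the protein DJ-1 (PARK7) protects cells from oxidative stress and has been described as a deglycase, an activity that is debated.

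The NB4 line derives from acute promyelocytic leukaemia, in which granulocyte precursors stop maturing. Poly(A) RNA was sequenced from 3 libraries of vector control cells, whose genotype is labelled wild-type, and 3 libraries of cells transduced by lentivirus to overexpress CD69, a membrane lectin that leukocytes show early in activation. No drug was given, cells were taken in logarithmic growth, and all 6 libraries carry the same batch label. The labels do not say whether libraries came from separate transductions or cultures, so each group may represent 1 transduced population and the spread between libraries may be technical.

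Total counts per library lay between 51543550 and 57463020. CD69 was at 77.6 ± 6.14 CPM (mean ± SD, n = 3; CPM are counts scaled by library size) for vector control cells and 97.7 ± 1.75 CPM in the overexpressing libraries, a small rise that passed the test (log2 fold change 0.33, SE 0.07; edgeR quasi-likelihood adjusted p = 0.0153) and did not without overexpressing replicate 2 (adjusted p = 0.0618). Promyelocyte markers were present in every library, with a summed level of 1628 to 1931 CPM over 9 genes in the controls and 2584 to 3049 CPM in the overexpressing libraries, but MPO, the myeloperoxidase gene, was at no more than 1.45 CPM in any library. These markers did not move together. ELANE, PRTN3, AZU1, CD33 and LYZ were above all controls in every overexpressing library, with PRTN3 at 111 to 141 and 596 to 700 CPM. CTSG, CST3 and MPO overlapped between the groups, and MS4A3 was below all controls (173 to 176 and 102 to 111 CPM). Overexpressing replicate 1 stood apart from replicates 2 and 3 on the first principal component (32.4 against 74.8 and 74.3). B cell markers summed to 33.8 to 39.4 CPM across the controls, 62.9 CPM in the first overexpressing library and 124 and 129 CPM in replicates 2 and 3. T and NK cell markers summed to 54.6 to 73.5 CPM across the controls and 99.9 to 119 CPM in the overexpressing libraries, nearly all of it from NKG7 (53.2 to 72.6 and 99.3 to 119 CPM). CD3E and CD3G were at 0, and CD2 was at 0.910 to 1.18 CPM in the controls and at most 0.142 CPM in the overexpressing libraries.

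The stretch upstream of GLO1 is shown because GLO1 is the gene with the large difference. It covers 250 bases before the RefSeq start of the gene (GRCh38.p14, minus strand, chr6:38703146-38703395), written 5′ to 3′ along the gene. Capitals mark every match on either strand to the 5 motifs searched.
GLO1 upstream: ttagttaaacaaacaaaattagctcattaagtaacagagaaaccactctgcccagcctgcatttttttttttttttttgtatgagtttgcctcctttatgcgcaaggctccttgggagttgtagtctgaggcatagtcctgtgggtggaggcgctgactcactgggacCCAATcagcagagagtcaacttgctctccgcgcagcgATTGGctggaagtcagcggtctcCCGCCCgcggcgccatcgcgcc
The matches were the CCAAT box (CCAAT) at 82 and, in the other orientation, at 45 bases before the start, and the GC box (GGGCGG), in the other orientation, at 22 bases before it. These letters were also present in 32.0% and 42.6% of all 35116 upstream windows of the same length. The core of the antioxidant response element (TGACNNNGC, in 10.9% of windows), the metal response element (TGCGCNC, 16.8%) and the TATA box (TATAAA, 10.7%) had no match there. Among the other genes, PARK7 had 1 match to TGACNNNGC, 83 bases before its RefSeq start, AKR1A1 had 2 GC boxes and AKR1B1 had 1, and HAGH had no match. The windows of PARK7 (chr1:7961461-7961710) and AKR1A1 (chr1:45550576-45550825) lie inside the gene spans given below. That of AKR1B1 (chr7:134459240-134459489) lies partly inside. The RefSeq starts used for these genes are downstream of the starts of those spans. A match is a string of letters, not a known site. Bases outside these windows, including those after the start, were not searched, so no match here does not mean that a gene lacks the motif.

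GLO1 (ENSG00000124767; GRCh38 chromosome 6, 38675925 to 38703141, minus strand), the first enzyme of the glyoxalase route, was the most abundant of the 5 genes and the one with the largest difference upward. It held 933, 927 and 925 CPM in controls 1, 2 and 3 and 5116, 5091 and 5106 CPM for overexpressing libraries 1, 2 and 3. The groups were far apart, and the overexpressing libraries were within a narrow range of each other. The means were 929 ± 4.13 and 5104 ± 12.5 CPM (SD, n = 3), a ratio of 5.50 and a fitted log2 fold change of 2.46 (SE 0.05). GLO1 took 0.0902% to 0.0939% of all counts in the controls and 0.506% to 0.518% in the overexpressing libraries. By mean level it was number 88 of the 19485 tested genes in the controls and number 9 in the overexpressing cells.

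The spread of GLO1 between libraries was very small. Its coefficient of variation was 0.444% in the controls and 0.244% in the overexpressing libraries, where counting error alone at its 52253 and 278103 mean counts would give 0.437% and 0.19%. If 4 counts stand for 1 fragment, which the count table leaves possible, counting error would be 0.875% and 0.379%, above the spread seen. Of the 19485 tested genes, 452 had a larger log2 fold change than GLO1, as had 96 of the 10994 with at least 5 CPM on average. Of the 2199 genes with at least 100 CPM across the controls, 2 had a larger log2 fold change than GLO1. These were the protease inhibitor gene SERPINB1 (194 ± 12.7 to 1076 ± 52.8 CPM) and CST7, which encodes the cystatin-like inhibitor of cathepsins, at a ratio of 6.11. They are named because they were the only genes in that count. GLO1 was selected for its abundance and its rise, so these ranks restate that choice and nothing is read from them.

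**Figure D1:**
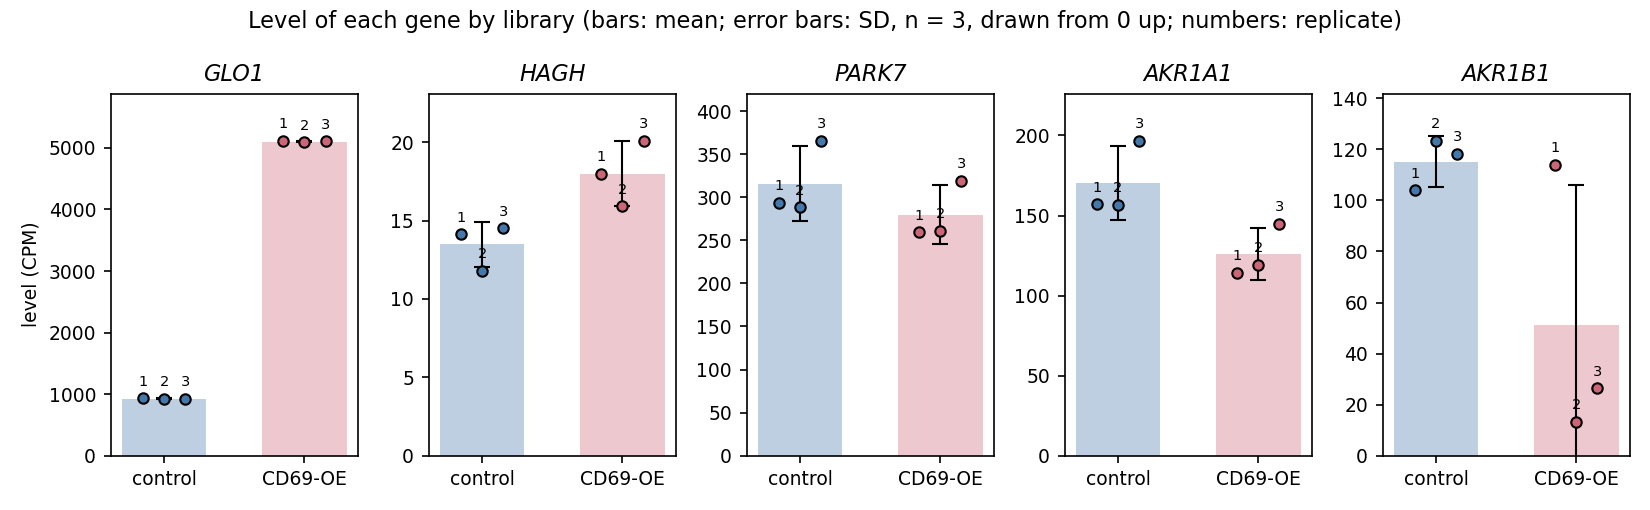
Level of GLO1, HAGH, PARK7, AKR1A1 and AKR1B1 in CPM in each control and CD69-overexpressing (CD69-OE) library, with bars for the mean, error bars for the SD (n = 3) and numbers for the replicate; each panel has its own axis from 0. GLO1 separates the groups by a ratio of 5.50 with almost no spread, while AKR1B1 in overexpressing replicate 1 is at the control level and replicates 2 and 3 are far below it.

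HAGH (ENSG00000063854; chromosome 16, 1795620 to 1827194, minus strand), the second enzyme of the route, was expressed at a far lower level. It held 14.1, 11.8 and 14.5 CPM across the controls and 18.0, 15.9 and 20.1 CPM in the overexpressing libraries. All 3 overexpressing libraries lay above all 3 controls, but the gap from control replicate 3 to overexpressing replicate 2 was smaller than the SD of either group. The means were 13.5 ± 1.46 and 18.0 ± 2.08 CPM (SD, n = 3), with a log2 fold change of 0.42 (SE 0.13). Its exons overlap those of FAHD1 on the opposite strand over 254 bases, so part of its counts is uncertain.

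Set per kilobase of exon, so that genes can be compared, GLO1 exceeded HAGH in every library. GLO1 was at 395 ± 1.75 and HAGH at 2.26 ± 0.244 CPM per kilobase in the controls (SD, n = 3), and at 2170 ± 5.29 and 3.01 ± 0.349 CPM per kilobase in the overexpressing libraries. The per-kilobase level of GLO1 was 162 to 199 times that of HAGH in the controls and 645 to 812 times in the overexpressing libraries. In the controls the order of per-kilobase levels was GLO1, PARK7 (132 ± 18.0), AKR1A1 (54.5 ± 7.35), AKR1B1 (31.5 ± 2.75) and HAGH, and the control values of neighbours in this order did not overlap. These levels depend on the exon length used: with the longest annotated transcript they were 462, 290, 93.6, 59.7 and 4.52, in the same order.

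PARK7 (ENSG00000116288; chromosome 1, 7954291 to 7985505, plus strand), which encodes DJ-1, held 293, 288 and 365 CPM across the controls and 260, 261 and 319 CPM in the overexpressing libraries. The groups overlapped, since overexpressing replicate 3 was above controls 1 and 2. Replicate 3 was the highest library in both groups. The means were 316 ± 43.1 and 280 ± 34.1 CPM (SD, n = 3), and the log2 fold change of -0.17 (SE 0.12) lay within the spread between libraries. The processed copy PARK7P1 held at most 10 counts in any library and PARK7P2 none.

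AKR1A1 (ENSG00000117448; chromosome 1, 45550543 to 45570049, plus strand), the aldehyde reductase, showed the same order of libraries within each group at a lower level. It held 157, 157 and 197 CPM across the controls and 114, 119 and 145 CPM in the overexpressing libraries. Every overexpressing library was below every control, with replicate 3 the highest of its group on both sides. The means were 170.2 ± 22.9 and 126 ± 16.4 CPM (SD, n = 3), a log2 fold change of -0.43 (SE 0.12).

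AKR1B1 (ENSG00000085662; chromosome 7, 134442350 to 134459284, minus strand), aldose reductase, the first enzyme of the polyol route, did not follow the groups. It held 104, 123 and 118 CPM across the controls, 114 CPM in the first overexpressing library, and 13.3 and 26.4 CPM in its replicates 2 and 3. Replicate 1 lay inside the range of the controls, and replicates 2 and 3 were at 0.116 and 0.23 times the control mean. The mean of the overexpressing libraries, 51.2 ± 54.8 CPM (SD, n = 3), thus describes none of them. The fitted log2 fold change was -1.17 (SE 0.67) over all libraries, -2.55 without overexpressing replicate 1, and -0.01 with that replicate as the sole overexpressing library, a comparison added once the values were known. The 8 genes named as processed copies of AKR1B1 held no counts.

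Of the 5 genes, GLO1 and HAGH lay above the controls in all overexpressing libraries, as 23.0% of all tested genes did, and AKR1A1 lay below them in all, as 19.3% did (24.7% and 22.4% of the coding genes). Nothing is read from these counts, since the same comparison chose the genes.

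The libraries low in AKR1B1 were also low in a set of transcripts of epithelial and connective tissue. Of the 10980 genes compared (at least 5 CPM on average and above 0 in every library), the 8 closest to AKR1B1 over the 6 libraries, by Euclidean distance between log2 CPM values centred on the control mean, were OSMR, FN1, TGM2, SERPINH1, C3, FAT1, COL12A1 and VCAN. This look at AKR1B1 was chosen after its values were seen. FN1, which encodes the matrix protein fibronectin, held 122, 122 and 119.5 CPM across the controls, and its overexpressing libraries stood at 119, 12.7 and 26.7 CPM in replicate order. The ratio of AKR1B1 to FN1 was 0.851, 1.01 and 0.989 across the controls and 0.959, 1.05 and 0.987 across the overexpressing libraries, a likeness for which FN1 had been picked. The ratio of AKR1B1 to KRT8, a keratin gene, was 1.87 to 2.11 across the controls and 2.00, 0.931 and 2.33 across the overexpressing libraries, so it was lower in replicate 2.

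The summed level of 10 fibroblast and epithelial markers was lower in the same libraries, while its members differed. The sum was 127 to 141 CPM across the controls, 131 CPM in the first overexpressing library, and 47.7 and 45.2 CPM in replicates 2 and 3. The keratin gene KRT8 held 55.6 to 58.5 CPM across the controls, against 56.9, 14.3 and 11.3 CPM for the overexpressing libraries in replicate order, and the keratin gene KRT18 and the collagen gene COL1A2 were likewise below all controls in replicates 2 and 3. The keratin gene KRT19 held 21.3 to 22.2 CPM across the controls and 23.4, 7.09 and 17.1 CPM in the overexpressing libraries. The collagen gene COL1A1 showed no such step, at 9.33, 8.16 and 4.94 CPM against 5.23 to 15.1 CPM for the controls. COL3A1, DCN and LUM, markers of fibroblasts, were highest in overexpressing replicate 2, at 3.72, 1.22 and 0.532 CPM, and DCN was at 0 in all controls. In all, 33 tested genes were at least 3 times lower in overexpressing replicates 2 and 3 than in each of the other 4 libraries. They were at 5 CPM or more in those 4. AKR1B1 was among them, and none of the pathway genes described below. By edgeR, 0 of the 33 were called lower, beside 9.94% of all tested genes. The rule that picked them splits the overexpressing group, which widens its spread, so nothing is read from this count. The part of these transcripts in the AKR1B1 values was not tested. In bulk RNA, fewer cells of a type and less RNA per cell cannot be told apart. GLO1, HAGH, PARK7 and AKR1A1 showed no such step: GLO1 was 5.51, 5.48 and 5.50 times the control mean (geometric) in overexpressing replicates 1, 2 and 3.

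**Figure D2:**
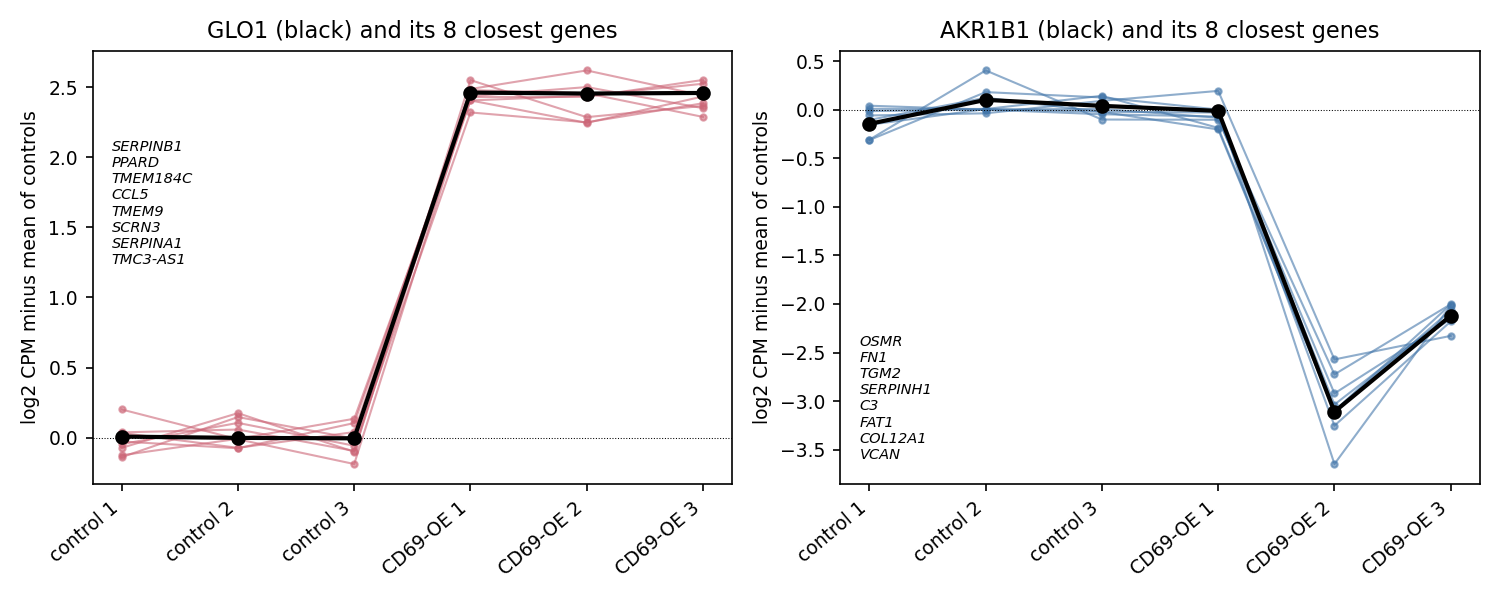
Log2 CPM minus the mean of the controls for GLO1 (left, black), AKR1B1 (right, black) and the 8 genes closest to each (coloured) in the 6 libraries; a line only joins the values of 1 gene. GLO1 is level within each group, and AKR1B1 steps down in overexpressing replicates 2 and 3 with FN1 and the others.

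The 8 genes closest to GLO1 by the same measure were SERPINB1 (distance 0.17), PPARD (0.193), TMEM184C (0.202), CCL5 (0.212), TMEM9 (0.291), SCRN3 (0.293), SERPINA1 (0.302) and the antisense RNA TMC3-AS1 (0.303). PPARD, a nuclear receptor gene, held 27.8, 25.9 and 28.0 CPM across the controls and 152, 149 and 133 CPM in the overexpressing libraries. CCL5, a chemokine gene, held 22.2, 24.0 and 26.6 CPM and 128, 131 and 139 CPM. SERPINB1 and PPARD lie on chromosome 6 like GLO1, and the others on 6 different chromosomes. TMC3-AS1 overlaps TMC3 on the opposite strand, so its counts are uncertain.

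GLO1 lies in a stretch of chromosome 6 where most genes were higher. Within 1 Mb of its start, 8 other coding genes are annotated, 5 were tested, and all 5 rose (edgeR quasi-likelihood test, adjusted p under 0.05), beside 16.4% of all coding genes tested. Their log2 fold changes ran from 0.72 to 1.20 with a median of 0.96, below the 2.46 of GLO1, and this difference was not tested. The neighbours within 250 kb were BTBD9, a BTB-domain protein gene up from 10.5 ± 0.972 to 17.4 ± 2.52 CPM (adjusted p = 0.00787), and the axonemal dynein gene DNAH8, which overlaps an antisense RNA. DNAH8 rose from 0.888 ± 0.215 to 2.05 ± 0.393 CPM (adjusted p = 0.0206), a call lost without control replicate 1 (0.0542) and without overexpressing replicate 2 (0.0807). The 3 others were ZFAND3, SAYSD1 and KCNK5, with log2 fold changes of 0.96, 1.19 and 0.76.

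Over 5 Mb on either side of GLO1, 80 of 107 tested coding genes rose and 1 fell. The gene that fell, MDGA1, starts 1004 kb from GLO1, just outside the 1 Mb window, and its log2 fold change was -1.08 (SE 0.14). Their median log2 fold change was 0.77, and 6 of them had a larger one than GLO1. The median log2 ratio of these genes to the control mean (0.5 CPM added to both) was 0.72, 0.74 and 0.73 in overexpressing replicates 1, 2 and 3, so replicate 1 did not stand apart here.

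Around the other 4 genes a smaller share of neighbours passed the test upward, a contrast with GLO1 that was not tested. Within 1 Mb of HAGH, 5 of 66 tested coding genes rose and 6 fell (median log2 fold change -0.06, against -0.01 over all coding genes). DESeq2 called 7 higher and 11 lower there, and limma-voom 6 and 5. Near PARK7, 3 of 7 fell and none rose, with a median of -0.49. Near AKR1A1, 10 of 33 fell and 3 rose, with a median of -0.26, where 12.5% of all coding genes fell. For these genes DESeq2 called 15 lower and limma-voom 9, and both called 3 higher. Near AKR1B1, none of 9 passed the edgeR test in either direction, none had an unadjusted p under 0.05, and DESeq2 and limma-voom called none. CALD1, an actin-binding protein gene 285 kb from AKR1B1 and one of the 33 genes low in replicates 2 and 3, held 8.71 to 13.2 CPM across the controls and 10.4, 2.25 and 1.76 CPM in the overexpressing libraries. Near PARK7 no gene had an unadjusted p under 0.05 upward, and neither DESeq2 nor limma-voom called one higher.

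**Figure D3:**
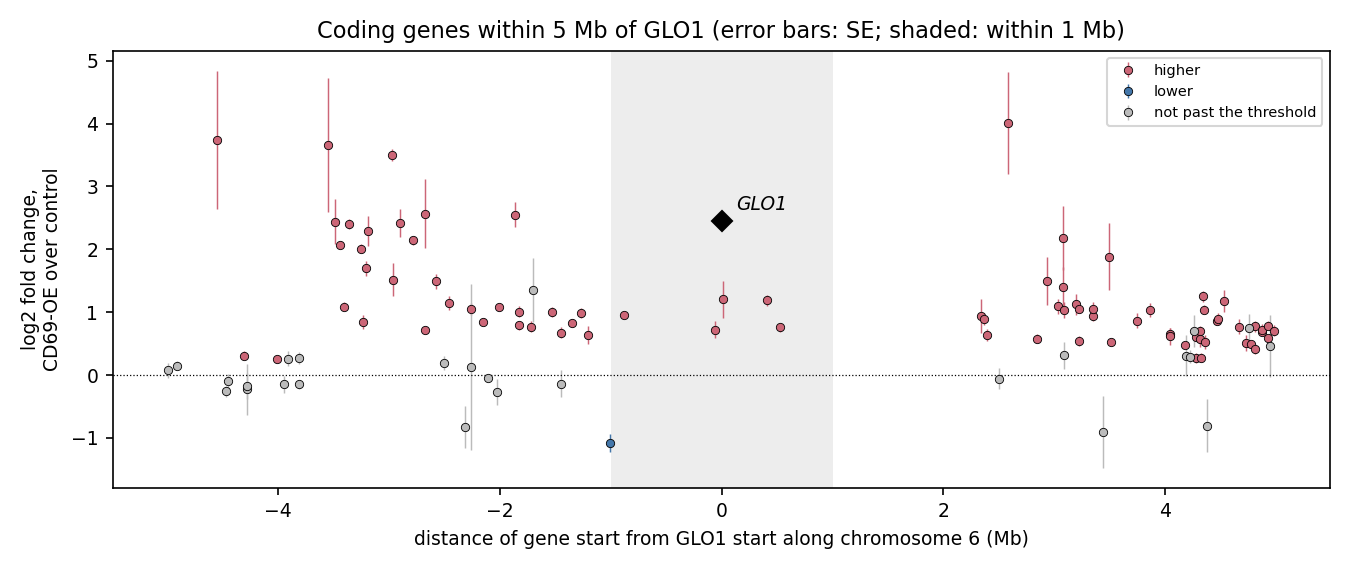
Log2 fold change (CD69-OE over control, error bars for the SE) of the 107 tested coding genes within 5 Mb of the start of GLO1, by the distance of their starts in Mb, coloured by the edgeR call at an adjusted p of 0.05; the shaded band is 1 Mb to either side. The 5 genes in the band lie between 0.72 and 1.20, and GLO1 (black diamond, no test) lies at 2.46.

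The rest of the methylglyoxal pathway was followed through 7 lists of 117 genes, of which 112 were tested. Together, 15 rose and 21 fell, and 76 did not pass the test, with a median log2 fold change of -0.05 against 0.01 over all tested genes. As background, 14.2% of all tested genes rose and 9.94% fell (16.4% and 12.5% of the coding genes).

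The list of glyoxalases and glyoxalase-like genes, called glyoxalase-like below, also holds enzymes of other kinds, such as LDHD and ESD. Of its 8 tested genes, 1 rose, none fell (edgeR quasi-likelihood test) and the median log2 fold change was 0.02. The gene that rose was LDHD, D-lactate dehydrogenase, which oxidises the D-lactate that HAGH releases. It held 0.196, 0.582 and 0.375 CPM across the controls and 2.52, 1.90 and 1.66 CPM in the overexpressing libraries (log2 fold change 2.39, SE 0.42; adjusted p = 0.00522), so the groups did not overlap but the level stayed low. GLOD4, a glyoxalase-domain gene, was at 85.2 ± 1.33 and 85.3 ± 6.13 CPM (SD, n = 3). ESD, an esterase that hydrolyses S-formylglutathione, was at 246 ± 14.3 and 209.6 ± 17.6 CPM, and missed the threshold (adjusted p = 0.0733). Downward, 1 gene had an unadjusted p under 0.05, DESeq2 called 1 and limma-voom 0, and without overexpressing replicate 3 edgeR called 1.

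Of 11 tested other aldo-keto reductases, 2 fell and none rose, with a median log2 fold change of -0.47. No gene had an unadjusted p under 0.05 upward by edgeR, and neither DESeq2 nor limma-voom called one higher. AKR7A3, an aflatoxin aldehyde reductase, held 9.26, 9.22 and 10.9 CPM across the controls and 5.28, 4.66 and 5.46 CPM in the overexpressing libraries, and fell by 0.93 on the log2 scale (SE 0.15; adjusted p = 0.00322). KCNAB2, a potassium channel subunit with an aldo-keto reductase fold, fell from 814 ± 32.4 to 694 ± 41.4 CPM (adjusted p = 0.0419), and this call was lost when any 1 library was left out (adjusted p = 0.0607 to 0.106), which leaves 1 gene. AKR1B10, the closest relative of AKR1B1 in the list, was at 0.553 CPM or less in every library. AKR1C1, AKR1C2 and AKR1C3, near-identical genes whose counts are uncertain, were highest in control replicate 1, where AKR1C2 held 11.2 CPM against 2.01 and 2.32 CPM in the other controls.

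**Figure D4:**
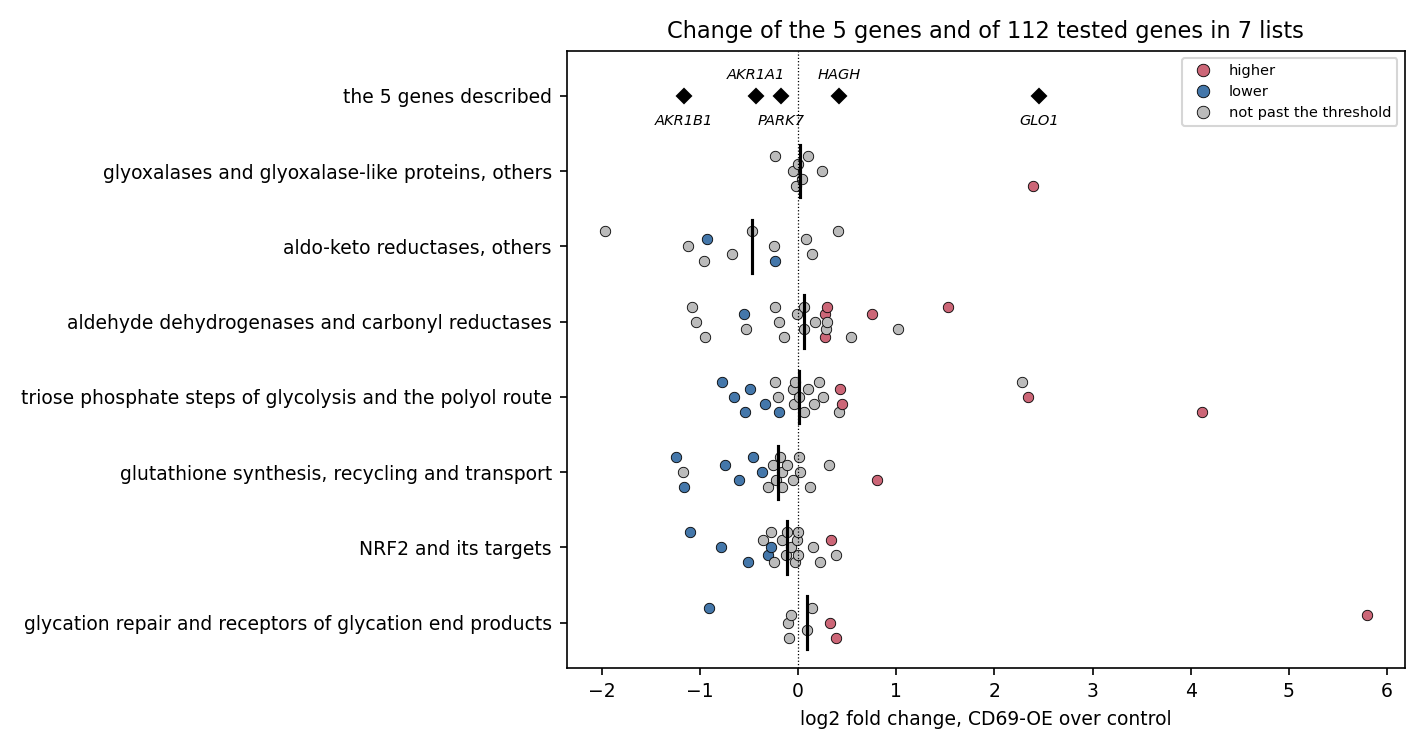
Log2 fold change (CD69-OE over control) of GLO1, HAGH, PARK7, AKR1A1 and AKR1B1 (black diamonds, no test) and of the 112 tested genes in the 7 lists (circles, coloured by the edgeR call at an adjusted p of 0.05), with a vertical bar at each list's median. The medians lie between -0.47 and 0.09, while GLO1 lies at 2.46.

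Among 21 aldehyde dehydrogenases and carbonyl reductases, 5 rose and 1 fell, with a median log2 fold change of 0.06. ALDH3A2, the fatty aldehyde dehydrogenase, held 4.52, 5.15 and 3.53 CPM across the controls and 12.9, 12.0 and 13.1 CPM in the overexpressing libraries (log2 fold change 1.53, SE 0.17; adjusted p = 0.000631). ALDH6A1, of valine breakdown, rose from 11.1 ± 1.45 to 18.7 ± 1.66 CPM (SD, n = 3), although its exons overlap those of BBOF1 on the opposite strand. The smaller rises were those of ALDH18A1 (0.27), CBR1 (0.28) and CBR4 (0.29). DCXR, a dicarbonyl reductase and the gene that fell, was at 122 ± 24.6 and 82.9 ± 11.9 CPM. The number of rises was 3, 2 and 7 without control replicates 1, 2 and 3 and 3 without any of the overexpressing libraries. The fall was lost without any 1 control and without overexpressing replicate 1 or 2.

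Of 23 genes of glycolysis around the triose phosphates and of the polyol route, 4 rose and 6 fell, with a median log2 fold change of 0.01. GPD2, the mitochondrial glycerol 3-phosphate dehydrogenase that makes dihydroxyacetone phosphate, held 2.82, 3.77 and 2.91 CPM across the controls and 57.9, 58.6 and 48.1 CPM in the overexpressing libraries (log2 fold change 4.11, SE 0.15). ALDOC, an aldolase, rose from 3.30 ± 0.247 to 16.7 ± 2.34 CPM (SD, n = 3), and its exons overlap an antisense RNA. PGK1 rose by 0.44 on the log2 scale (SE 0.06) and shares exons with other genes. SORD, which oxidises the sorbitol that AKR1B1 makes, held 200.3, 198 and 209 CPM across the controls and 118, 121 and 117 CPM in the overexpressing libraries, and fell by 0.77 on the log2 scale (SE 0.06), also in overexpressing replicate 1, where AKR1B1 was at the control level. SORD overlaps an antisense RNA.

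TPI1, which interconverts the triose phosphates, was at 703 ± 103 and 482 ± 31.9 CPM (SD, n = 3; log2 fold change -0.54, SE 0.11; adjusted p = 0.00949, and 0.0524 without overexpressing replicate 2). GAPDH, which consumes glyceraldehyde 3-phosphate, was at 3682 ± 444 and 2908 ± 215 CPM (log2 fold change -0.34, SE 0.10; adjusted p = 0.0388). The GAPDH call was lost without any 1 control (adjusted p = 0.0528 to 0.0697) and without overexpressing replicate 1 (0.109) or 2 (0.154). ALDOA was at 1056 ± 153 and 1015 ± 228 CPM and shares exons with another gene. Without overexpressing replicate 2, the number of falls in this list was 3. TPI1 overlaps SPSB2 over 14 bases and GAPDH overlaps an antisense RNA, both on the opposite strand.

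Glutathione genes, which supply the cofactor of GLO1, had 6 falls and 1 rise among 20, a share of 30.0% lower, with a median log2 fold change of -0.21. CTH, which makes cysteine, held 50.7, 50.0 and 42.2 CPM across the controls and 21.3, 22.0 and 20.3 CPM in the overexpressing libraries, and fell by 1.17 on the log2 scale (SE 0.09; adjusted p = 0.000157). CHAC1, which degrades glutathione, fell from 14.7 ± 1.23 to 6.20 ± 0.513 CPM (SD, n = 3), and SLC3A2, the heavy chain of the cystine transporter, from 272 ± 18.5 to 198 ± 13.1 CPM. GGT1, which splits glutathione outside the cell, rose from 37.9 ± 3.92 to 66.0 ± 3.33 CPM and shares exons with SNRPD3. The synthesis enzymes GCLC, GCLM and GSS and the reductase GSR did not pass the test, at 73.7, 41.4, 72.8 and 135 CPM in the overexpressing libraries against 59.3, 49.3, 75.5 and 146 CPM across the controls. Without control replicate 3, GCLC passed (adjusted p = 0.026) and the list had 2 rises, and GCLM (0.00717) and GSR (0.0423) passed downward. GCLC shares exons with a long non-coding RNA.

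NRF2, the transcription factor of the antioxidant response encoded by NFE2L2, has GLO1 among its reported targets. Of 20 genes for NRF2, its partners and its targets, 1 rose and 5 fell, with a median log2 fold change of -0.12. PRDX1, a peroxiredoxin, held 563, 560 and 694 CPM across the controls and 332, 335 and 388 CPM in the overexpressing libraries, and fell by 0.78 on the log2 scale (SE 0.11). It lies within 1 Mb of AKR1A1 and overlaps MMACHC on the opposite strand. HMOX1, haem oxygenase, fell from 14.6 ± 2.01 to 6.79 ± 0.733 CPM (SD, n = 3), and FTH1, ferritin heavy chain, by 0.51 on the log2 scale (adjusted p = 0.0141, and 0.0545 without overexpressing replicate 2), with exons over those of BEST1. TKT, transketolase, rose from 683 ± 49.6 to 859.7 ± 20.8 CPM (adjusted p = 0.011), but not without control replicate 1 or 2 or overexpressing replicate 1 or 2 (0.0506 to 0.0792). NFE2L2 itself was at 101 ± 8.02 and 101 ± 2.67 CPM and its inhibitor KEAP1 at 86.4 ± 8.11 and 77.1 ± 3.14 CPM, neither past the test. The classical target NQO1 was at 54.5 ± 3.30 and 53.9 ± 6.76 CPM. The falls numbered 3 without overexpressing replicate 1 and 2 without replicate 2, and the rises 0 without control replicate 1 or 2 or overexpressing replicate 1 or 2, and 2 without control replicate 3.

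Of 9 tested genes of glycation repair and of receptors for glycated proteins, 3 rose and 1 fell, with a median log2 fold change of 0.09. CD36, a scavenger receptor, held 0.482, 0.511 and 0.482 CPM across the controls and 28.9, 26.0 and 27.3 CPM in the overexpressing libraries (log2 fold change 5.79, SE 0.13). SCARB1, another scavenger receptor, fell from 174 ± 3.42 to 92.5 ± 1.81 CPM (SD, n = 3). FN3KRP, a ketosamine kinase that removes sugar adducts, rose by 0.38 and the DNA repair glycosylase OGG1 by 0.33 on the log2 scale. Both overlap genes on the opposite strand. Without overexpressing replicate 2 the only rise left in this list was 1 gene. AGER, the receptor of advanced glycation end products, was at 8.18 ± 0.74 and 9.03 ± 1.66 CPM, within the spread between libraries.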

How the data were processed

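Poly(A) RNA from 6 libraries of NB4 cells was measured by strand-specific paired sequencing, per the labels' protocols. A single gene count table was deposited, made with FastQC, fastp, STAR and featureCounts on GRCh38, per the submitters' processing notes. For tool versions, annotation release and strand setting the entry is: not given in the sources used here. These deposited numbers were handled as estimated counts, because 1496 genes of control replicate 1 held exactly 4 counts against 777 with 3 and 505 with 5, so that 1 fragment may stand for 4 counts. They were whole numbers, and rounding changed nothing.

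Genes were kept by filterByExpr (19485 of 61806), scaled by TMM and tested with edgeR 4.0.16 (quasi-likelihood test, two-sided, Benjamini-Hochberg adjusted p under 0.05; R 4.3.3) over all genes, with limma 3.58.1 and DESeq2 1.42.0 as alternatives. Levels are CPM with TMM factors. Symbols came from a gene name table (61757 identifiers matched), positions and exon lengths from GENCODE annotation of GRCh38, upstream sequences from RefSeq (GRCh38.p14; all 5 genes matched, at the start nearest to the annotated one). Genes were named if they were among the 5 described, CD69, up to 4 genes of a list with the smallest p past the threshold, genes the glyoxalase reactions need, tested coding genes within 250 kb of GLO1, and the 8 genes of at least 5 CPM closest to GLO1; other names were chosen after their values were seen. The genes, lists and tests were chosen with earlier results of these data known. Chi-square per degree of freedom between replicates, on counts divided by 4, was 2.51 to 15.8, so no pair agreed within sampling noise. Replicate 3 stood furthest from the others in both groups. Its pairs gave 15.8 and 14.5 in the controls, against 2.51 for replicates 1 and 2. In the overexpressing libraries they gave 9.95 and 9.01, against 4.82. On simulated counts for 18837 genes, the test recovered 71% of genes changed by 1 and 93% changed by 2 on the log2 scale, and called 17 of the 18637 left unchanged. The changed genes were drawn only from those above 1 CPM on average, so these shares do not cover genes below that. The simulated libraries also lacked the split between overexpressing replicate 1 and replicates 2 and 3. Plots used matplotlib 3.10.9.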

Additional observations from a re-analysis of the deposited data

How the results depend on the processing

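The log2 fold change of GLO1 was 2.44 with RLE or upper-quartile factors and with DESeq2, 2.47 without scaling factors, and 2.46 with a filter of 50 counts in 3 libraries, shifts that exceed only its very small spread. Leaving out 1 library at a time gave 2.44 to 2.46 for GLO1, 0.31 to 0.49 for HAGH, -0.28 to -0.05 for PARK7, -0.54 to -0.31 for AKR1A1 and -2.55 to -0.72 for AKR1B1, and AKR1B1 was at -0.0148 when replicate 1 was the sole overexpressing library (added after seeing the data). The largest shift of the median of all genes by another scaling was -0.0154 (log2). The control levels per kilobase with the longest transcript were 462 (GLO1), 4.52 (HAGH), 290.2 (PARK7), 93.6 (AKR1A1) and 59.7 (AKR1B1).

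Over all genes, 2767 rose and 1937 fell, against 1783 to 2917 and 1137 to 2226 with 1 library left out (fewest without overexpressing replicate 2) and 797 and 380 with overexpressing replicate 1 alone. With 1 library left out, rises and falls were 1 to 1 and 0 to 1 for glyoxalase-like genes, 0 to 0 and 1 to 1 for aldo-keto reductases, 2 to 7 and 0 to 1 for dehydrogenases and carbonyl reductases, 4 to 5 and 3 to 5 for glycolysis, 1 to 2 and 4 to 8 for glutathione, 0 to 2 and 2 to 6 for NRF2, and 1 to 4 and 1 to 1 for glycation. With overexpressing replicate 1 alone, the falls were 0 for aldo-keto reductases and for dehydrogenases, 1 for glycolysis, 2 for glutathione and 1 for NRF2, and the rises 1 for dehydrogenases, 2 for glycolysis, 0 for NRF2 and 1 for glycation. Dehydrogenase falls were 2 with RLE or upper-quartile factors, the 50-count filter or counts divided by 4, 3 with DESeq2 and 0 without a filter. Glutathione rises were 2 with the 50-count filter, counts divided by 4 or DESeq2. DESeq2 also gave 7 glycolysis rises, 7 dehydrogenase rises, 7 glutathione falls and 1 glyoxalase-like fall, and without a filter 1 aldo-keto reductase fell. The causes were not tested. With the replicate number as a block, there were 7 glycolysis, 2 glutathione and 3 NRF2 rises and 1 glyoxalase-like and 2 dehydrogenase falls. Deviations from the group means correlated at 0.0127, 0.0814 and 0.234 for replicates 1, 2 and 3. The numbers did not pair replicates 1 and 2, and control replicate 1 correlated best with overexpressing replicate 2 (0.121). The 2 libraries numbered 3 correlated best of all pairs across the groups. All other pairs with a replicate 3 were negative (-0.169 to -0.0751). What replicate 3 shared across the groups was not tested. Genes near 1 CPM, such as LDHD and DNAH8, rest on few counts.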
